A study of Mus musculus with 16 samples.

Results

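The genes described here are 9 hypoxia-linked angiogenic genes, Angpt2, Apln, Aplnr, Cd93, Vegfa, Adm, Egln3, Esm1 and Ndrg1, taken from the 55573 gene rows of an RNA sequencing study of mouse cerebral cortex. The members were picked with their CPM (read counts scaled by library size) in the study's groups already known, so their differences between groups are given as descriptions and no test of them is reported. Each symbol matched 1 Ensembl gene. The study compared cortices of mice with mutations in Aifm1, the X-linked gene for the mitochondrial flavoprotein apoptosis-inducing factor, with cortices of wild-type littermates.

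There were 4 groups with 4 libraries each. Aifm1-KI mice carry the Aifm1 (R200 del) knock-in allele, and Aifm1-WT mice are their wild-type littermates. Hq-mut mice carry the Harlequin allele of Aifm1, with the stock given as B6CBACa Aw-J/A-Aifm1Hq/J, and Hq-WT mice are their wild-type littermates. The strain label is C57BL/6 in all 4 groups. All cortices were collected near postnatal day 180 from mice that had received no treatment, and the labels name no Cre driver or chosen cell type for either allele. Neither sex nor pooling of animals is stated in the labels, nor that the libraries come from separate animals, so the spreads given are between libraries and may be partly technical.

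When oxygen falls, prolyl hydroxylases stop marking hypoxia-inducible factors (HIFs) for destruction, and the factors switch on genes for glucose use, vessel growth and vessel tone. Vascular endothelial growth factor A, made in brain largely by glia and neurons, acts on receptors of endothelial cells. Endothelial cells at a growing vessel's front make angiopoietin 2, apelin and ESM1. Among the 9 genes, Vegfa, Angpt2, Apln and Adm encode secreted ligands, Aplnr and Cd93 encode cell surface receptors, Esm1 encodes a secreted proteoglycan, Egln3 encodes a prolyl hydroxylase that acts on HIFs and is itself a HIF target, and Ndrg1 encodes a hypoxia-responsive protein that is also abundant in myelinating glia.

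The study's libraries held 10671580 to 32551594 counts, so that a count of 0 would allow up to 0.0876 to 0.277 CPM, taking 3 counts as the limit and covering counting error only. Aifm1, the mutated gene, had 23.7 ± 1.84 CPM in Aifm1-KI and 22.7 ± 0.81 CPM in Aifm1-WT, and 3.32 ± 0.79 CPM in Hq-mut against 23.9 ± 1.25 CPM in Hq-WT (SD, n = 4 each). Cortical excitatory neuron markers were detected in every library, at a summed level of 1404 to 2719 CPM for 7 markers. Some libraries stood apart by markers of neighbouring tissue. The summed level of 10 striatal markers was 653 and 598 CPM in Aifm1-KI 2 and 4 and 853 CPM in Hq-mut 3, against 225 to 367 CPM in the others. Choroid plexus markers summed to 2802 CPM in Aifm1-KI 2 and 5471 CPM in Hq-WT 2, against at most 378 CPM in the others. The fold changes below are therefore also given without Aifm1-KI 2 and 4, without the Hq pair numbered 2 or without the Hq pair numbered 3.

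Promoter sequence is shown for 4 known hypoxia-responsive genes of the set. Their log2 fold changes in the Hq line were -0.59 (SE 0.28) for Apln and -0.39 (SE 0.17) for Vegfa. They were -0.24 (SE 0.34) for Adm and 0.37 (SE 0.19) for Egln3. A link between matches and these values was not tested. The windows are the 250 bases before the RefSeq gene start on GRCm38.p6, written 5′ to 3′ on the gene's own strand. Capitals mark the core of the hypoxia response element, searched as ACGTG and GCGTG on both strands (CACGT and CACGC when read on the opposite strand).
Apln, chrX:48034854-48035103, minus strand: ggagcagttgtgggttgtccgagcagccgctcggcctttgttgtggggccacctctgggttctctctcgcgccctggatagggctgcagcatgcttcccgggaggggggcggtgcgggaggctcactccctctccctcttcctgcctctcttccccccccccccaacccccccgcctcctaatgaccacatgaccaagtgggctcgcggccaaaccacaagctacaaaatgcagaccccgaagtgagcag
Vegfa, chr17:46032378-46032627, minus strand: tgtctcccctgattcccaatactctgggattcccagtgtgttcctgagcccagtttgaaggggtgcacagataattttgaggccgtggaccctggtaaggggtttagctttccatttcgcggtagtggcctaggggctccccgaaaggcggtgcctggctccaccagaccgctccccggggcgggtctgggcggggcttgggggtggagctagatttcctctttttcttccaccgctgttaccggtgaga
Adm, chr7:110627407-110627656, plus strand: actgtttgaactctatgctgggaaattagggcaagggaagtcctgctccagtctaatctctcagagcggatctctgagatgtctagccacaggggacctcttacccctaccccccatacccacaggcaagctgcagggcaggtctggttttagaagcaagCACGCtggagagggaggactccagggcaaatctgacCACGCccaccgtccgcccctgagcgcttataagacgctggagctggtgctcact
Egln3, chr12:54203875-54204124, minus strand: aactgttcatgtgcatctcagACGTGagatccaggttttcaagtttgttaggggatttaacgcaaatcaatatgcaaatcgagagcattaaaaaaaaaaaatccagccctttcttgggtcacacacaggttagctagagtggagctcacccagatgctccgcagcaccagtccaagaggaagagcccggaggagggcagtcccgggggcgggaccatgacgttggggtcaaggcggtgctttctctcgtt
The Apln window and the Vegfa window shown hold 0 matches, the Adm window holds 2, both GCGTG on the opposite strand, and the Egln3 window holds 1, ACGTG on the gene's strand. Among 32851 promoter windows of the same length, 16.6% hold ACGTG, 28.2% hold GCGTG and 38.6% hold either, so a match is common. Sequence outside the RefSeq windows was not searched, so 0 matches in a window does not show that a gene lacks the element. Vegfa has a second RefSeq window before an internal start, chr17:46025164-46025413, with 2 matches, 1 GCGTG on the gene's strand and 1 ACGTG on the opposite strand. Esm1 also has a window, with 1 match. Angpt2, Aplnr, Cd93 and Ndrg1 are named only.

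Vegfa, the ligand that drives endothelial growth, was the most abundant of the 9 genes per length. In CPM per kilobase of exon it averaged 18.7 ± 0.92 in Aifm1-KI, 18.8 ± 1.80 in Aifm1-WT, 14.9 ± 1.76 in Hq-mut and 19.2 ± 4.54 in Hq-WT (SD, n = 4 each). In Hq-mut the order below it was Ndrg1 at 8.68 ± 2.34, Apln at 6.58 ± 1.66, Egln3 at 5.58 ± 0.98, Cd93 at 2.68 ± 1.13, Angpt2 at 0.802 ± 0.454, Adm at 0.783 ± 0.225, Esm1 at 0.122 ± 0.034 and Aplnr at 0.0893 ± 0.0284 CPM per kilobase. Neighbours in that order from Ndrg1 to Egln3, Angpt2 with Adm, and Esm1 with Aplnr lay within their SDs of each other. In Hq-WT, Apln at 9.76 ± 3.73 and Ndrg1 at 7.32 ± 3.73 CPM per kilobase traded places, within their SDs. Adm at 0.912 ± 0.349 and Angpt2 at 0.287 ± 0.165 CPM per kilobase also changed order in Hq-WT, there with a gap wider than their SDs.

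**Figure D1:**
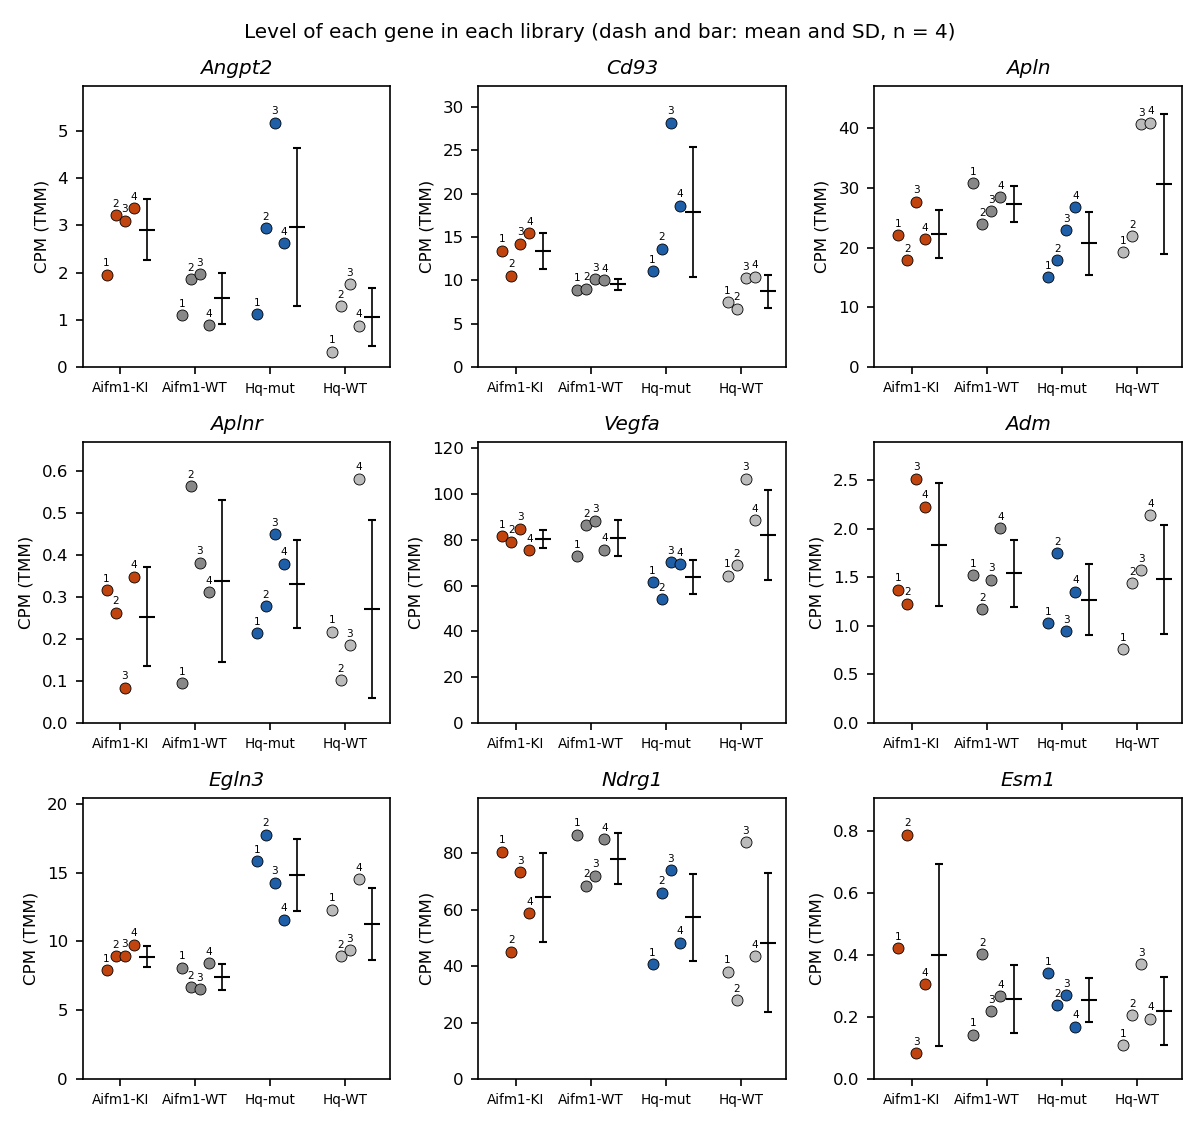
Level of each of the 9 genes in the 16 libraries, in CPM, with a panel and a vertical axis of its own for each gene and numbered points for the libraries of each group (dash and bar, mean and SD, n = 4). Cd93 is the gene whose mutant points all lie above the wild-type points in both lines, and Aplnr and Esm1 stay under 0.8 CPM throughout.

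Angpt2 (ENSMUSG00000031465, chr8:18690263-18741562, minus strand, GRCm38) encodes the angiopoietin that opposes angiopoietin 1 at the endothelial receptor TIE2 and loosens vessels for remodelling. It had 1.95, 3.21, 3.10 and 3.36 CPM in Aifm1-KI 1 to 4, against 1.09, 1.86, 1.97 and 0.890 CPM in Aifm1-WT 1 to 4. Aifm1-KI 1 lay just under the highest wild type and the other 3 knock-in libraries above all wild types. In the Harlequin line Angpt2 had 1.11, 2.94, 5.17 and 2.62 CPM in Hq-mut 1 to 4, against 0.326, 1.28, 1.76 and 0.874 CPM in Hq-WT 1 to 4. The groups overlapped through Hq-mut 1, but the mutant was higher than the wild type of the same number in 4 of 4 pairs, by 3.41, 2.29, 2.95 and 2.99 times. The raw counts behind these values were small, 26 to 115 in Hq-mut and 6 to 25 in Hq-WT. The edgeR log2 fold change was 1.02 (SE 0.28) for Aifm1-KI over Aifm1-WT and 1.505 (SE 0.53) for Hq-mut over Hq-WT. With the replicate number as a block the Hq value was 1.45 (SE 0.20). Without Aifm1-KI 2 and 4 the log2 fold change was 0.78, and it was 1.67 without the Hq pair numbered 2 and 1.39 without the pair numbered 3.

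Cd93 (ENSMUSG00000027435, chr2:148436640-148443563, minus strand) encodes a C-type lectin-like receptor of endothelial cells that binds matrix proteins and takes part in their migration and adhesion. It had 13.4, 10.5, 14.2 and 15.5 CPM in Aifm1-KI 1 to 4, against 8.93, 9.04, 10.2 and 10.1 CPM in Aifm1-WT 1 to 4. It had 11.1, 13.7, 28.2 and 18.6 CPM in Hq-mut 1 to 4, against 7.51, 6.73, 10.3 and 10.4 CPM in Hq-WT 1 to 4. Every mutant library lay above every wild type of its own line, and Hq-mut 3, the library with the most striatal marker RNA, was the highest of all. Of the 7 genes with enough counts to be fitted, Cd93 was the 1 gene with this separation in either line, where the share of all genes tested with mutant libraries all above wild types was 2.03% in the Aifm1 line and 0.857% in the Hq line. Of the same 7 genes, 0 had all mutant libraries below the wild types, which held for 2.83% of all genes tested in the Aifm1 line and 0.723% in the Hq line. The log2 fold change of Cd93 was 0.50 (SE 0.12) in the Aifm1 line and 1.01 (SE 0.29) in the Hq line, or 0.94 (SE 0.14) with the replicate block. It was 0.55 without Aifm1-KI 2 and 4, 1.02 without the Hq pair numbered 2 and 0.78 without the pair numbered 3.

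Striatal markers moved with both genes. All 10 were higher in Aifm1-KI (median log2 fold change 1.25), as were the 9 fitted in Hq-mut (median 0.84), and over the 16 libraries their mean log2 CPM had r = 0.54 with Angpt2 and r = 0.57 with Cd93. On deviations from the group means the values were 0.21 and 0.29. Of all the marker lists, the highest by this measure was endothelium for Angpt2 (0.70) and astrocyte for Cd93 (0.79). The lowest were excitatory neuron for Angpt2 (-0.26) and microglia for Cd93 (-0.20). Cd93 had 0.71 with pericyte and smooth muscle markers and 0.26 with endothelial markers. The part of striatal tissue in the levels of Angpt2 and Cd93 was not tested beyond leaving out the libraries above.

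Angpt2 and Cd93 are transcribed mainly in endothelium, so both were also set against the summed CPM of 12 endothelial markers, which was 158 to 175 in Aifm1-KI, 158 to 214 in Aifm1-WT, 196 to 266 in Hq-mut and 185 to 226 in Hq-WT, with 0 of the 12 markers at 0 in any group. In whole tissue, fewer cells of a type and less RNA per cell cannot be told apart. Of the 12 markers, 2 were higher and 10 lower in Aifm1-KI (median log2 fold change -0.24), and 7 were higher and 5 lower in Hq-mut (median 0.08). Their part in the levels of Angpt2 and Cd93 was not tested beyond this ratio. As a percentage of the endothelial sum, Angpt2 was 1.75 ± 0.42 in Aifm1-KI and 0.738 ± 0.184 in Aifm1-WT, and 1.31 ± 0.74 in Hq-mut and 0.490 ± 0.258 in Hq-WT (SD, n = 4 each). By this ratio the Aifm1-KI libraries, at 1.12 to 1.97, all lay above the Aifm1-WT libraries, at 0.563 to 0.925, while the Hq groups overlapped. Cd93 made 8.05 ± 1.23% of the sum in Aifm1-KI and 5.06 ± 0.91% in Aifm1-WT, and 8.10 ± 3.49% in Hq-mut and 4.15 ± 0.75% in Hq-WT. For Cd93 neither line's groups overlapped. The gap was narrow in the Aifm1 line, with 6.46 to 9.04% in Aifm1-KI and 4.22 to 6.36% in Aifm1-WT. In the Hq line the ranges were 5.13 to 12.7% in Hq-mut and 3.15 to 4.87% in Hq-WT. How many of all genes separate by this ratio was not counted. The endothelial sum had a median of 167 CPM in Aifm1-KI and 198 CPM in Aifm1-WT, and in CPM the Angpt2 groups of that line overlapped.

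**Figure D2:**
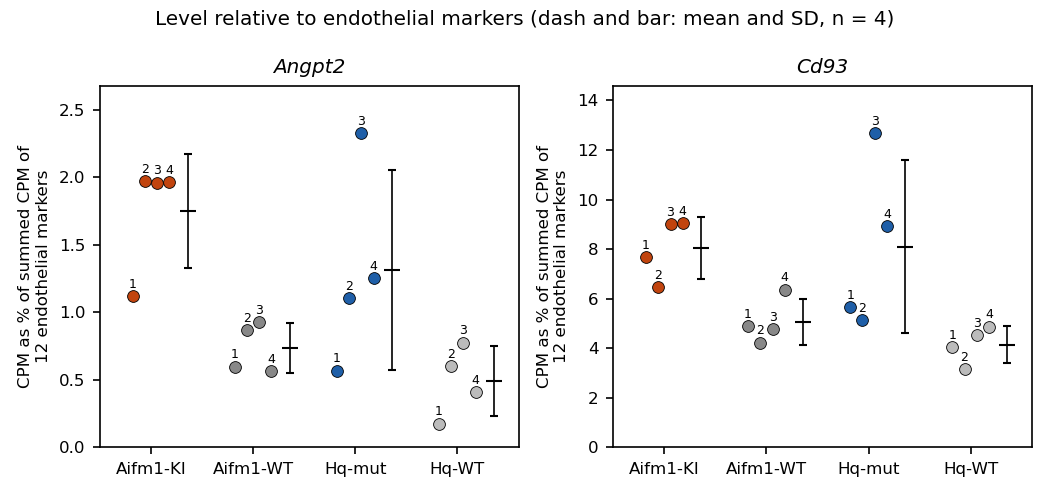
Angpt2 (left) and Cd93 (right) in each library as a percentage of the summed CPM of 12 endothelial markers, by group (numbered points, libraries; dash and bar, mean and SD, n = 4). Aifm1-KI libraries all lie above Aifm1-WT for both genes, and Hq-mut 1, at 0.567%, lies inside the Hq-WT range for Angpt2. For Cd93 the gap in the Aifm1 line is narrow, 6.46% against 6.36%. The share of all genes that separate by this ratio was not counted. In CPM the Angpt2 groups of the Aifm1 line overlap.

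Apln (ENSMUSG00000037010, chrX:48025146-48034853, minus strand) encodes apelin, the peptide ligand of the apelin receptor, and went the other way from Angpt2 and Cd93. It had 22.1, 17.9, 27.7 and 21.4 CPM in Aifm1-KI 1 to 4, against 30.8, 23.9, 26.2 and 28.4 CPM in Aifm1-WT 1 to 4. It had 15.1, 17.96, 23.0 and 26.8 CPM in Hq-mut 1 to 4, against 19.3, 21.9, 40.8 and 41.0 CPM in Hq-WT 1 to 4. The groups overlapped in both lines, and within the Hq pairs the mutant was the lower one in 4 of 4, at 0.782, 0.819, 0.564 and 0.654 of the wild type of its number. The log2 fold change was -0.29 (SE 0.13) in the Aifm1 line and -0.59 (SE 0.28) in the Hq line, or -0.55 (SE 0.11) with the replicate block. It was -0.13 without Aifm1-KI 2 and 4, -0.65 without the Hq pair numbered 2 and -0.49 without the pair numbered 3. Apln lies 440.09 kb from Aifm1 on chromosome X, and a part of that position in its level was not tested.

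Vegfa (ENSMUSG00000023951, chr17:46016993-46032369, minus strand) had 81.5, 79.1, 84.8 and 75.5 CPM in Aifm1-KI 1 to 4, against 72.8, 86.2, 88.3 and 75.6 CPM in Aifm1-WT 1 to 4. All 4 knock-in values lay inside the wild-type range, with a log2 fold change of 0.0029 (SE 0.08) whose sign turned in 7 of the 14 alternative settings tried and was 0.05 without Aifm1-KI 2 and 4. In the Harlequin line Vegfa had 61.6, 54.1, 70.1 and 69.4 CPM in Hq-mut 1 to 4, against 64.3, 68.8, 107 and 88.5 CPM in Hq-WT 1 to 4. The mutant was the lower one in 4 of 4 numbered pairs, at 0.958, 0.786, 0.657 and 0.784 of the wild type, and the groups overlapped. Its log2 fold change was -0.39 (SE 0.17), or -0.37 (SE 0.09) with the replicate block, -0.38 without the pair numbered 2 and -0.29 without the pair numbered 3. The summed CPM of 8 pericyte and smooth muscle markers was 123 to 174 in Hq-mut and 148 to 211 in Hq-WT, with 7 of 8 lower in the mutant, and across the 16 libraries the log2 CPM of Vegfa had r = 0.69 with their mean. In Aifm1-KI all 8 of these markers were lower (median log2 fold change -0.29, against -0.18 in Hq-mut), while Vegfa was at 0.0029 there. Vegfa also had r = 0.55 with astrocyte markers and r = 0.59 with meningeal markers over the 16 libraries. The part of any of these cell types in the Vegfa values was not tested.

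Among all genes tested in the Hq line, 11.9% were higher in 4 of 4 numbered pairs and 6.88% were lower in 4 of 4. The 7 fitted genes gave 2 in each direction, Angpt2 and Cd93 higher and Apln and Vegfa lower, which are the values the genes were picked on. Their levels also ran together in part. Over the 16 libraries, which share sources and depth, the log2 CPM of Apln and Vegfa had r = 0.72 and that of Angpt2 and Cd93 r = 0.75, while Apln and Cd93 had r = -0.05. These values include the group differences the genes were picked on. On deviations from the group means, Apln and Vegfa had r = 0.72, Angpt2 and Cd93 r = 0.54, and Apln and Cd93 r = 0.71.

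Adm (ENSMUSG00000030790, chr7:110627661-110629820, plus strand) encodes adrenomedullin, a vasodilator peptide. It was scarce, with 1.37, 1.23, 2.51 and 2.22 CPM in Aifm1-KI 1 to 4, against 1.52, 1.17, 1.48 and 2.002 CPM in Aifm1-WT 1 to 4. It had 1.03, 1.75, 0.945 and 1.35 CPM in Hq-mut 1 to 4, against 0.762, 1.44, 1.57 and 2.14 CPM in Hq-WT 1 to 4. The groups overlapped widely in both lines, and the log2 fold changes of 0.22 (SE 0.27) and -0.24 (SE 0.34) were smaller than their errors. They were 0.30 without Aifm1-KI 2 and 4, -0.44 without the Hq pair numbered 2 and -0.11 without the pair numbered 3.

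Egln3 (ENSMUSG00000035105, chr12:54178981-54203860, minus strand), the oxygen-sensing hydroxylase, had 7.92, 8.91, 8.97 and 9.77 CPM in Aifm1-KI 1 to 4, against 8.08, 6.66, 6.501 and 8.41 CPM in Aifm1-WT 1 to 4. It had 15.8, 17.8, 14.3 and 11.6 CPM in Hq-mut 1 to 4, against 12.3, 8.94, 9.34 and 14.5 CPM in Hq-WT 1 to 4. Mutant libraries tended to the upper end in both lines with overlap, and Hq-mut 4 lay below its numbered wild type. For Egln3 the log2 fold change was 0.28 (SE 0.11) in the Aifm1 line and 0.37 (SE 0.19) in the Hq line. It was 0.19 without Aifm1-KI 2 and 4, 0.18 without the Hq pair numbered 2 and 0.30 without the pair numbered 3.

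Ndrg1 (ENSMUSG00000005125, chr15:66929318-66969640, minus strand) followed oligodendrocyte markers. It had 80.5, 45.1, 73.3 and 58.8 CPM in Aifm1-KI 1 to 4, against 86.6, 68.5, 72.1 and 84.9 CPM in Aifm1-WT 1 to 4. It had 40.7, 66.0, 74.1 and 48.3 CPM in Hq-mut 1 to 4, against 38.0, 27.8, 83.9 and 43.5 CPM in Hq-WT 1 to 4. The groups overlapped in both lines, with Hq-WT 3 highest and Hq-WT 2 lowest in the Hq line. The summed CPM of 8 oligodendrocyte markers, myelin genes such as Mbp among them, was 3916, 1884, 4214 and 2759 in Aifm1-KI 1 to 4, against 4781, 3550, 3645 and 4838 in Aifm1-WT 1 to 4. It was 2180, 4738, 4866 and 3347 in Hq-mut 1 to 4, against 2373, 1954, 5946 and 3066 in Hq-WT 1 to 4. Ndrg1 and the marker levels ran together across the libraries, with r = 0.90 over the 16 libraries and r = 0.96 on deviations from the group means. The log2 fold change of Ndrg1 was -0.27 (SE 0.16) in the Aifm1 line, where all 8 markers were lower (median -0.41), and 0.22 (SE 0.32) in the Hq line, where all 8 were higher (median 0.25). It was -0.0054 without Aifm1-KI 2 and 4 and, in the Hq line, -0.03 without the pair numbered 2 and 0.47 without the pair numbered 3. Of its 6596 exon bases, 8.43% overlap the noncoding genes Gm17035 and Gm2895 on the opposite strand, and since no strand setting is given their reads cannot be told apart there. The part of oligodendrocyte RNA in the Ndrg1 values was not tested further.

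**Figure D3:**
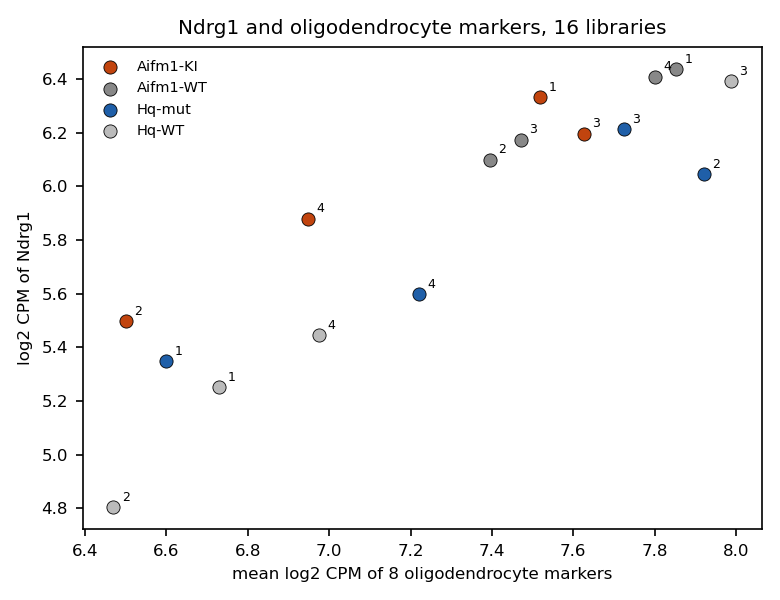
Log2 CPM of Ndrg1 (vertical) against the mean log2 CPM of 8 oligodendrocyte markers (horizontal) in the 16 libraries, coloured by group and numbered by library. The points rise together with r = 0.90, and the groups are interleaved along the line.

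Aplnr (ENSMUSG00000044338, chr2:85136225-85139923, plus strand), which encodes the apelin receptor, had too few counts for the low-count filter in every fit. It averaged 0.253 ± 0.118 CPM in Aifm1-KI, 0.338 ± 0.194 in Aifm1-WT, 0.331 ± 0.105 in Hq-mut and 0.272 ± 0.213 in Hq-WT (SD, n = 4 each). Esm1 (ENSMUSG00000042379, chr13:113209659-113218098, plus strand), a tip-cell proteoglycan also called endocan, likewise failed the filter, with 0.400 ± 0.295 CPM in Aifm1-KI, 0.258 ± 0.110 in Aifm1-WT, 0.255 ± 0.072 in Hq-mut and 0.220 ± 0.109 in Hq-WT. Their counts were 1 to 27 per library, too few for the fits, so no fold change is given.

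**Figure D4:**
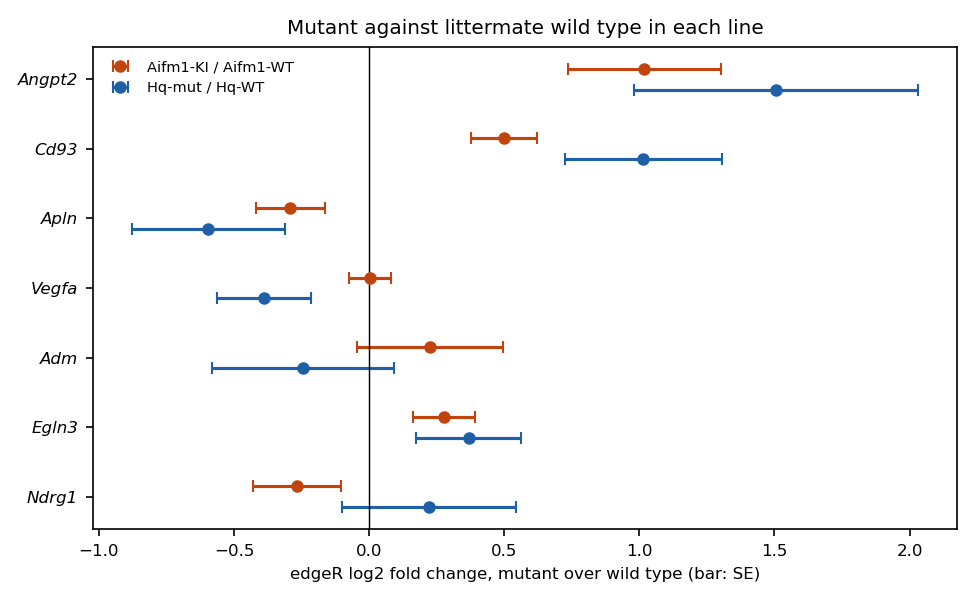
EdgeR log2 fold change of the 7 fitted genes, Aifm1-KI over Aifm1-WT (orange) and Hq-mut over Hq-WT (blue), with bars of 1 SE on each side. Angpt2 and Cd93 lie right of 0 and Apln left of 0 in both lines, while Vegfa is at 0.0029 in the Aifm1 line and -0.39 in the Hq line.

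The 9 genes did not share a direction. In the Aifm1 line 5 of the 7 fitted genes had a positive log2 fold change and 2 a negative one (median 0.22, against 0.0055 over all 18383 genes tested). In the Hq line 4 were positive and 3 negative (median 0.22, against 0.01 over all 17969). The lines' effects on each gene are side by side above. The log2 difference between them, Hq minus Aifm1, was 0.50 (SE 0.63) for Angpt2, 0.52 (SE 0.34) for Cd93, -0.30 (SE 0.34) for Apln and -0.39 (SE 0.20) for Vegfa. With the replicate number as a block in both lines these were 0.41 (SE 0.32), 0.45 (SE 0.19), -0.25 (SE 0.16) and -0.37 (SE 0.12), in that order. In the Aifm1 line the numbers were not taken as pairs, so these smaller SEs rest partly on a pairing not accepted there.

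Genes that work with these 9 were followed in 8 lists holding 84 genes, of which 78 passed the filter in the Aifm1 line and 77 in the Hq line. EdgeR called 0 of them in either line at an adjusted p under 0.05, with or without the replicate block, where it called 0% of all genes tested in the Aifm1 line and 0.0167% (3 genes) in the Hq line. At an unadjusted p under 0.05 there were 18 in the Aifm1 line (23.1%), 8 higher and 10 lower, against 11.4% of all genes tested. The lists were chosen with earlier results of these data known, so this share and those that follow are descriptions, not tests of the lists. In the Hq line, fitted without the block, there was 1, Slc2a1 (1.30%), against 2.14% of all genes tested. The unadjusted share with the block was not counted. DESeq2 called Bhlhe41 in the Aifm1 line, where it called 0.446% of all genes, and 0 of the listed genes in the Hq line, where it called 0.0167% and, with the block, 0.208%. Limma-voom called 0 of the listed genes in either line, where it called 0% and 0.0111% of all genes. For the difference between the lines' effects, over 16 libraries, 0 of the listed genes were called by edgeR (0.0105% of 19129 genes), DESeq2 (0.0262%) or limma-voom (0.00523%), and 7 had an unadjusted p under 0.05 by edgeR (8.97%, against 5.08% of all genes).

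Of the 9 HIF subunits and oxygen-sensing regulators, 2 were higher and 7 lower in Aifm1-KI (median log2 fold change -0.06) and 4 higher and 5 lower in Hq-mut (median -0.0061). Hif3a, which encodes a HIF alpha subunit with inhibitory isoforms, had 12.2 ± 1.05 CPM in Hq-mut and 8.94 ± 2.31 CPM in Hq-WT, which gave a log2 difference by edgeR of 0.43 (SE 0.20, adjusted p = 1). With the replicate block the edgeR adjusted p of Hif3a was 0.576. Epas1, which encodes the HIF alpha subunit prominent in endothelium, had 166 ± 26.2 CPM in Hq-mut and 174 ± 41.9 CPM in Hq-WT.

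Of the other HIF targets, 31 of 34 were fitted in the Aifm1 line, with 15 higher and 16 lower (median -0.0010), and 30 in the Hq line, with 18 higher and 12 lower (median 0.03). Slc2a1, which encodes the glucose transporter of the blood-brain barrier, had 108 ± 29.8 CPM in Hq-mut and 80.3 ± 6.61 CPM in Hq-WT, which gave a log2 difference by edgeR of 0.41 (SE 0.17, adjusted p = 1). With the replicate block the edgeR adjusted p of Slc2a1 was 0.585. Bhlhe41, which encodes a transcriptional repressor of the circadian and hypoxia responses, had 28.7 ± 0.82 CPM in Aifm1-KI and 37.0 ± 3.63 CPM in Aifm1-WT, with an adjusted p of 0.368 by edgeR and 0.0425 by DESeq2. Car12, which encodes a carbonic anhydrase, had a log2 fold change of 1.69 (SE 0.62) in the Aifm1 line and -0.11 without Aifm1-KI 2 and 4.

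The receptors for the ligands above were not called either. Flt1, which encodes a VEGF receptor, had 53.9 ± 6.43 CPM in Aifm1-KI and 70.9 ± 7.94 CPM in Aifm1-WT, and 64.9 ± 10.1 CPM in Hq-mut and 76.0 ± 14.9 CPM in Hq-WT. Tek, which encodes the angiopoietin receptor TIE2, had 9.57 ± 1.13 CPM in Aifm1-KI and 13.5 ± 1.71 CPM in Aifm1-WT, and 11.5 ± 2.34 CPM in Hq-mut and 15.1 ± 4.31 CPM in Hq-WT. The log2 fold change of Tek was -0.48 (SE 0.12) in the Aifm1 line and -0.41 (SE 0.23) in the Hq line, opposite in sign to that of Angpt2, with an edgeR adjusted p of 0.368 in the Aifm1 line and 1 in the Hq line. With the replicate block the edgeR adjusted p of Tek in the Hq line was 0.528. Of the 12 endothelial markers, 10 were lower in Aifm1-KI and 5 in Hq-mut. The part of endothelial RNA in the levels of Tek and Flt1 was not tested. Angpt1, the other TIE2 ligand, had a log2 fold change of 1.04 (SE 0.35) in the Aifm1 line and 0.30 without Aifm1-KI 2 and 4. Of the VEGF ligands and receptors 5 of 9 were higher in Aifm1-KI and 7 of 9 in Hq-mut.

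Of the 5 fitted partners of apelin and adrenomedullin, 2 were higher in Aifm1-KI and 3 in Hq-mut, and Ramp3, which encodes a protein that pairs with the adrenomedullin receptor, had 16.2 ± 8.72 CPM in Hq-mut and 9.83 ± 2.16 CPM in Hq-WT. Of the 5 CD93-related lectins and matrix ligands, 0 were higher in Aifm1-KI and 3 in Hq-mut. Mmrn2, which encodes a matrix ligand of CD93, had 3.07 ± 0.59 CPM in Aifm1-KI and 4.01 ± 0.26 CPM in Aifm1-WT. The part of endothelial RNA in the Mmrn2 level was not tested either. Of 12 tip-cell and sprouting genes, 4 were higher in Aifm1-KI and 8 in Hq-mut, and of the other 3 NDRG genes 1 and 2. Edn1, which encodes the vasoconstrictor endothelin 1 and lies outside these lists, was called in the Hq line, with 7.75, 11.004, 8.82 and 8.40 CPM in Hq-mut 1 to 4, against 2.12, 1.95, 2.31 and 3.01 CPM in Hq-WT 1 to 4 (edgeR adjusted p = 0.0178), a call lost in 8 of 18 alternative settings. The count of 0 listed genes called does not cover Edn1, since no list holds it.

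**Figure D5:**
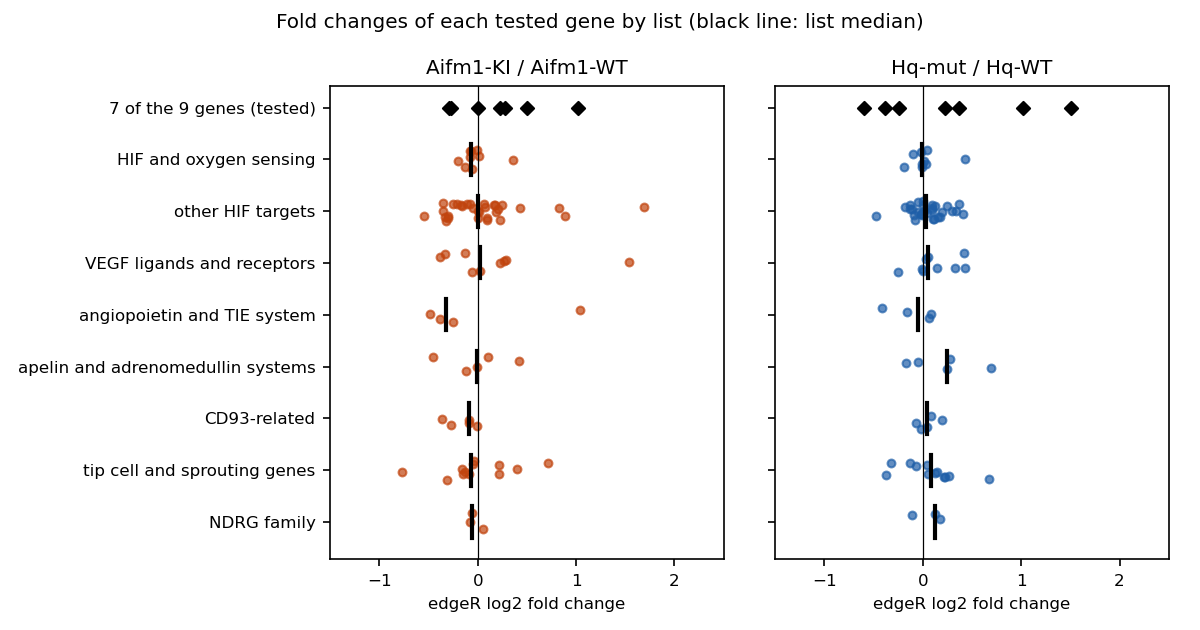
EdgeR log2 fold change of each fitted gene in 8 pathway lists and of 7 of the 9 genes, Aifm1-KI over Aifm1-WT and Hq-mut over Hq-WT, with a black line at the list median. The list medians lie between -0.32 and 0.24, and 0 of the listed genes passed the adjusted threshold in either line.

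The genes whose log2 CPM ran most like the mean of the 9 over the 16 libraries, among 16019 candidates, were Tctn1 (r = 0.90), Enpp1 (r = 0.83), Irgm2 (r = 0.83), Gtpbp10 (r = 0.82) and Clec3b (r = 0.82). On deviations from the group means the values were 0.91, 0.92, 0.89, 0.77 and 0.81.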

How the data were processed

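Gene expression was measured in 16 cortex libraries, 4 in each of 4 groups taken from the titles. Per the series' design text, the authors trimmed 51-base single-end reads, mapped them to mm10 with STAR and counted them per gene with htseq-count. STAR 2.6, SAMtools and HTSeq are named in the submitters' processing notes. For the annotation release and the strand setting, the sources used here give nothing. What the authors deposited is 1 table of raw whole-number counts for Ensembl genes, with 0 unused columns and 0 rows without a gene ID. No 2 libraries of a group agreed within sampling noise.

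Symbols and positions came from GENCODE M21 on GRCm38, and promoters from RefSeq. CPM were scaled with TMM factors over all 16 libraries, and log2 CPM used a prior count of 2. The 8 libraries of each line were fitted with edgeR 4.0.16 under R 4.3.3 (TMM, default low-count filter by group, quasi-likelihood F-test, Benjamini-Hochberg adjusted p under 0.05 over all genes tested). The difference of the mutant effects was fitted over 16 libraries. Standard errors (SE) were computed as the log2 fold change over the square root of the F value. DESeq2 1.42.0, limma-voom from limma 3.58.1, no filter, left-out libraries and the replicate number as a block were alternatives. Same-numbered Hq libraries deviated together (r = 0.43, 0.53, 0.41 and 0.45 over genes), so the numbers were taken to pair the samples. In the Aifm1 line the values were 0.06, 0.10, 0.04 and -0.03, and the numbers were not taken as pairs. The fits were tested on simulated data with known changes in well-counted genes. Of changes of 1.5 times, 52% were recovered in the Aifm1 line, 14% in the Hq line and 72% there with the block. Of changes of 2 times, the shares were 90%, 82% and 92%. Each simulated set held 50 changed genes at each of 1.5, 2, 3 and 4 times. That is more than edgeR called in these data, and many true changes ease the adjusted threshold. The block run also used a pair effect of a set size. The shares may thus be higher than the fits reach in these data. Unchanged genes called numbered 13, 4 and 16. A result of 0 calls therefore does not show that small changes are absent.

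The 9 genes, the pathway lists and the marker lists were chosen with earlier results of these data known. Of 84 pathway genes, 83 matched 1 gene ID, as did all 81 markers. Beside the 9 genes, the text names Aifm1, Edn1 and genes drawn from the 3 of each pathway list with the smallest unadjusted p in the Hq line and the 1 with the smallest in the Aifm1 line. The 5 genes most like the set have a mean log2 CPM of at least 0.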

Additional observations from a re-analysis of the deposited data

How the results depend on the processing

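The number of genes called in the Aifm1 line was 0 with edgeR, 82 with DESeq2, and 0 to 46 when single libraries were left out, with 46 reached without Aifm1-KI 3. In the Hq line it was 3, and 1 to 2 when single libraries were left out, 1 without both libraries numbered 2 and 1 without both numbered 3. For the difference of effects it was 2, with 5 by DESeq2, 1 by limma-voom and 1 to 2 when single libraries were left out. With the replicate block edgeR called 0 in the Aifm1 line, 3 in the Hq line and 2 for the difference, and DESeq2 with the block called 33 in the Hq line. In a setting chosen after seeing the data, the block gave 1 call without the Hq pair numbered 3 and 4 calls without the pair numbered 2. Over all libraries the same 3 Hq genes were called with and without the block by edgeR. Over the 14 alternatives in the Aifm1 line and 18 in the Hq line, the log2 fold change was 0.78 to 1.18 and 1.10 to 1.81 for Angpt2, 0.42 to 0.60 and 0.71 to 1.19 for Cd93, and -0.42 to -0.13 and -0.77 to -0.42 for Apln. That of Adm in the Hq line was -0.47 to 0.01 and that of Ndrg1 -0.03 to 0.63. The call of Edn1 was lost in 8 alternatives, among them without Hq-mut 3 (edgeR adjusted p = 0.0558). Low counts limit Aplnr and Esm1, and Angpt2 in Hq-WT.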
